A study of Mus musculus with 4 samples.

Results

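The Rtl1-antisense microRNAs (miRNAs) are 5 hairpins of the imprinted Dlk1-Dio3 domain, miR-431, miR-433, miR-127, miR-434 and miR-136, which lie on the opposite strand of the gene Rtl1. Each hairpin can give a mature miRNA from its 5′ side (the 5p arm) and from its 3′ side (the 3p arm), so the set has 10 arms. The arms were taken by name, in a choice made with earlier results of these data known, and all 10 had a row among the 1326 mature miRNAs of the count table. The samples were whole retinas of mouse embryos at E18.5, shortly before birth, from which RNA of 18 to 30 nt was sequenced. Ptf1a-/- embryos (2 libraries) lacked both functional copies of Ptf1a, and Ptf1a+/- embryos (2 libraries) carried 1 functional copy, so the controls were themselves heterozygous and no Ptf1a+/+ retina was analysed here. The nature of the Ptf1a allele, the strain and the number of animals behind a library are not given in the labels. Neither Ptf1a mRNA nor Rtl1 mRNA is measured by small RNA sequencing, so the genotype labels could not be checked in these data. The series is about the generation of amacrine cells, and the comparison asked which miRNAs differ when Ptf1a function is lost.

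Ptf1a encodes a transcription factor by which retinal progenitors take the fate of amacrine or horizontal interneurons. The Dlk1-Dio3 domain is imprinted: Dlk1, Rtl1 and Dio3 are expressed from the paternal chromosome, and the noncoding RNAs Meg3, the Rtl1 antisense transcript, Rian and Mirg, with the miRNAs they hold, from the maternal one. Rtl1 is a gene derived from a retrotransposon and acts in the placenta and in muscle. Because the antisense hairpins are transcribed across the Rtl1 coding sequence, their mature miRNAs pair with Rtl1 mRNA without a mismatch, and in mouse embryos they direct its cleavage. A miRNA otherwise recognises its targets mainly through its seed, bases 2 to 8 from its 5′ end.

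The hairpins are shown because their place and their arms define the set. In GRCm38 they span 4942 bases of chromosome 12, on the plus strand: Mir431 at chr12:109590447-109590537, Mir433 at chr12:109591715-109591838, Mir127 at chr12:109592846-109592915, Mir434 at chr12:109594506-109594599 and Mir136 at chr12:109595327-109595388. Rtl1 lies on the minus strand (chr12:109589193-109600330), and all 5 hairpins fall inside the coding part of its exon 2. Counted from the Rtl1 start codon, Mir136 lies at coding bases 16 to 77, Mir434 at 805 to 898, Mir127 at 2489 to 2558, Mir433 at 3566 to 3689 and Mir431 at 4867 to 4957 of 5232. For each hairpin both arms were found, as the exact reverse complement, in the annotated Rtl1 transcript. The hairpin sequences (RefSeq, GRCm38.p6, 5′ to 3′) have the reference 5p and 3p arms in capitals:
Mir431: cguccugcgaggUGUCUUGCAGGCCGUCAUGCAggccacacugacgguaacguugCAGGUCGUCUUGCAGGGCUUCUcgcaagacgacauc
Mir433: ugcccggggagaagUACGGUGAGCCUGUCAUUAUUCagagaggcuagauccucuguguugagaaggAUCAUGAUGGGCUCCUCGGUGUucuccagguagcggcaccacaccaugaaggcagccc
Mir127: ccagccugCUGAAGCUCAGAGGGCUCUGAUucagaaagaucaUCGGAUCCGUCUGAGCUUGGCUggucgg
Mir434: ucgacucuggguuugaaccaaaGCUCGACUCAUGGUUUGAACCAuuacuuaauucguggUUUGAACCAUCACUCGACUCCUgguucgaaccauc
Mir136: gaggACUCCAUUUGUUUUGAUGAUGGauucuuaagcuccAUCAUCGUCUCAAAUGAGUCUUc

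**Figure D1:**
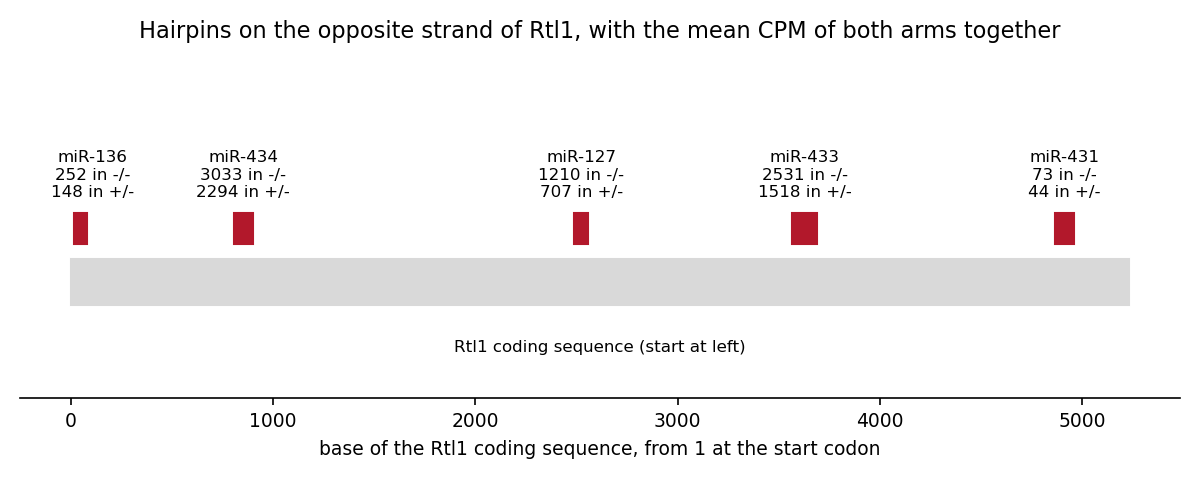
Place of the 5 hairpins along the Rtl1 coding sequence, in bases from 1 at the start codon (the hairpins lie on the opposite strand), with the mean CPM (counts scaled to a common library size) of both arms together in each genotype. miR-434 had the highest combined level, 3033 CPM in Ptf1a-/- and 2294 CPM in Ptf1a+/- retinas, and miR-431, the hairpin farthest from the start codon, the lowest, 73.0 CPM in Ptf1a-/- and 44.4 CPM in Ptf1a+/- retinas.

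The mature arms follow with the seed in capitals (RefSeq), because the seed sets which other mRNAs an arm can recognise. No seed is shared between 2 arms of the set, and none is shared with another mature mouse miRNA in the RefSeq table:
mmu-miR-431-5p: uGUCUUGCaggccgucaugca
mmu-miR-431-3p: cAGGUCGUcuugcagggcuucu
mmu-miR-433-5p: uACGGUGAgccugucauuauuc
mmu-miR-433-3p: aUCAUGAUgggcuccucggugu
mmu-miR-127-5p: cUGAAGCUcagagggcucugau
mmu-miR-127-3p: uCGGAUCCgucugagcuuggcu
mmu-miR-434-5p: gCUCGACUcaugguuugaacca
mmu-miR-434-3p: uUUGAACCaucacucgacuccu
mmu-miR-136-5p: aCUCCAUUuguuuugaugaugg
mmu-miR-136-3p: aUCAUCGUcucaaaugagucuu

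In these retinas 3 of the 10 arms were most often read with another 5′ end than the reference, and so with another seed. The deposited table of most frequent sequences gives the sequence only, so how large a share of an arm's reads it held is unknown. For miR-431-3p it rests on few reads, with 28 and 17 counts in Ptf1a-/- and 15 and 20 counts in Ptf1a+/- libraries. miR-136-3p began 1 base earlier, miR-431-3p 2 bases earlier and miR-127-5p 2 bases later, each in all 4 libraries. The Ptf1a-/- and Ptf1a+/- libraries thus gave the same start for each of these arms. Among the 584 miRNAs kept for testing (a minimum of 10 counts in 2 or more of the libraries), 60 (10.3%) began at a shifted base in every library that held them. The sequences read most often are shown as deposited, with T for U and the seed they carry in capitals; for miR-431-3p it is the one of 3 of the 4 libraries, and Ptf1a+/- replicate 1 had a further T at its 3′ end:
miR-136-3p: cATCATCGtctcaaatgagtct
miR-431-3p: tGCAGGTCgtcttgcagggcttc
miR-127-5p: gAAGCTCAgagggctctgattc
None of these shifted seeds is the seed of a mature mouse miRNA in the RefSeq table. miR-127-5p also ended 2 bases later than the reference, with bases that the hairpin holds.

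At the 3′ end, miR-127-3p carried an added C in all 4 libraries, a base that the hairpin does not hold there. In Ptf1a+/- replicate 2, a single added base that the hairpin does not hold was found for 19 of the 584 miRNAs. It was T in 17 of them, A in 1 and C in 1, miR-127-3p. Any miRNAs without a usable reference hairpin could not be scored but are among the 584, so 19 is a lower limit. The most frequent miR-431-5p sequence lacked its last base in Ptf1a-/- replicate 2 and was the reference in the other 3 libraries. The remaining 5 arms, both of miR-434, both of miR-433 and miR-136-5p, were read as the reference in every library. For miR-433-5p this rests on 13 to 39 counts per library. The sequence of miR-127-3p as read most often, with its seed in capitals, shows the added base at its end:
miR-127-3p: tCGGATCCgtctgagcttggctc

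The libraries held 3658490 and 3917069 listed counts in Ptf1a-/- and 3647145 and 4385834 in Ptf1a+/- retinas. Counting alone limits precision to these depths, and no molecular identifiers are described, so intervals cover counting error only. Nothing in the labels says that replicates were separate embryos, so the p-values rest on a spread among libraries that may be only technical. The Ptf1a+/- libraries lay much closer together (biological coefficient of variation 1.39%) than the Ptf1a-/- libraries (22.6%); among miRNAs with 20 to 2000 summed counts the Ptf1a+/- pair differed by little more than read sampling (chi-square per degree of freedom 1.11, p = 0.04999), and over all with 20 or more by 1.85 per degree of freedom (p = 5.12e-32). The 6 retinal marker miRNAs were all present and summed to 379233 and 534665 CPM in Ptf1a-/- and 362498 and 359323 CPM in Ptf1a+/- retinas, with Ptf1a-/- replicate 2 highest. The most abundant were miR-9-5p, miR-182-5p and miR-183-5p, with log2 fold changes (Ptf1a-/- over Ptf1a+/-) of 0.38, 0.37 and 0.48. For miR-124-3p, miR-96-5p and miR-181a-5p these were -0.15, -0.34 and -0.45. miR-124-3p was lowest in Ptf1a-/- replicate 2 (1019 and 832 CPM in Ptf1a-/-, 1020 and 1033 CPM in Ptf1a+/- retinas). Summed markers of vessels stood at 337.3 and 566 CPM in Ptf1a-/- and 580 and 598 CPM in Ptf1a+/- retinas, and those of striated muscle, a tissue that also expresses this domain, at 65.0 and 70.3 CPM in Ptf1a-/- and 48.5 and 51.1 CPM in Ptf1a+/- retinas. No tested member of the vessel, muscle, blood, pigment epithelium or retina lists passed the test, and 1 of 3 tested epithelial markers did (miR-200b-3p, lower). This marker was scarce, at 0.258 and 0.923 CPM in Ptf1a-/- and 6.46 and 6.59 CPM in Ptf1a+/- retinas. It met the count minimum only in the Ptf1a+/- libraries. The part of other cells in the results below was not tested. In whole retina, more cells that express a miRNA and more of it per cell cannot be told apart.

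Several arms of the set were higher without Ptf1a. Of the 10 arms, 5 were higher in Ptf1a-/- retinas and none was lower with the adjusted p below 0.05 (quasi-likelihood test in edgeR, Benjamini-Hochberg over 584 miRNAs; 8 higher and 0 lower at an unadjusted p under 0.05). Over all 584 miRNAs, 36 (6.16%) were higher and 21 (3.6%) lower, and 80 (13.7%) were higher at an unadjusted p under 0.05. The calls were lost without either Ptf1a+/- library. Without either Ptf1a-/- library their number rose, as it did over all miRNAs. The spread is then taken from the closely matched Ptf1a+/- pair alone. With library size as the only scaling the count of arms called was 0. Without a filter on low counts 2 arms passed, with a term for the replicate number 0, and with DESeq2 5. The single-arm calls below thus belong to the main fit (4 libraries, TMM, the count minimum, genotype as the only term). The arms that rose were both arms of miR-127 and the 3p arms of miR-136, miR-433 and miR-434. Levels are CPM (counts scaled to a common library size) with TMM factors, a method that sets the libraries to a common level from the bulk of the miRNAs, and fold changes are given as log2 of Ptf1a-/- over Ptf1a+/- with their standard error. All 10 log2 fold changes were above 0, from 0.31 to 1.10 with a median of 0.68, against a median of 0.00 over all miRNAs. In 9 of the 10 arms the lower Ptf1a-/- library exceeded the higher Ptf1a+/- library, as it did in 26.7% of all miRNAs.

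miR-127, known in mouse embryos to guide cleavage of Rtl1 mRNA, held the arm with the largest change of the set, its less abundant 5p arm. Its 3p arm is the more abundant: mmu-miR-127-3p stood at 1014 and 1192 CPM in Ptf1a-/- replicates 1 and 2 and at 640 and 674 CPM in Ptf1a+/- replicates 1 and 2. The genotypes did not overlap, and the log2 fold change was 0.75 ± 0.12 (SE; edgeR, adjusted p = 0.0233). mmu-miR-127-5p stood at 108 and 106 CPM in Ptf1a-/- and at 51.6 and 48.3 CPM in Ptf1a+/- retinas. Under TMM the replicates lay close within each genotype, and the 2.14-fold difference (log2 fold change 1.10 ± 0.14, edgeR, adjusted p = 0.0117) was the largest of the 10 arms. Like miR-136-3p and miR-431-3p, it was read with a shifted seed in every library.

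miR-136, nearest the Rtl1 start codon, had arms of more similar abundance. mmu-miR-136-3p stood at 179 and 175 CPM in Ptf1a-/- and at 88.6 and 95.9 CPM in Ptf1a+/- retinas, without overlap. Its log2 fold change was 0.94 ± 0.12 (edgeR, adjusted p = 0.0124). mmu-miR-136-5p stood at 74.1 and 76.3 CPM in Ptf1a-/- and at 59.7 and 52.5 CPM in Ptf1a+/- retinas. It did not overlap either but missed the threshold, with a log2 fold change of 0.43 ± 0.15 (adjusted p = 0.141). The overlapping hairpin on the other strand, Mir3071, and the neighbouring Mir432 had no row in the table and were not analysed here.

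miR-433 was read almost wholly from its 3p arm. mmu-miR-433-3p stood at 2331 and 2718 CPM in Ptf1a-/- and at 1490 and 1536 CPM in Ptf1a+/- retinas. Both Ptf1a-/- libraries were higher, under TMM replicate 2 more so, with a log2 fold change of 0.74 ± 0.12 (edgeR, adjusted p = 0.0233). mmu-miR-433-5p had only 39 and 13 counts in Ptf1a-/- and 22 and 24 counts in Ptf1a+/- libraries. Its Ptf1a-/- libraries lay on either side of the Ptf1a+/- libraries, the one arm whose genotypes overlapped (0.43 ± 0.46, adjusted p = 0.613; ratio of summed counts 1.36, 95% exact counting interval 0.897 to 2.07).

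miR-434, a rodent miRNA, had the smallest change in its 5p arm. mmu-miR-434-5p stood at 1799 and 2140 CPM in Ptf1a-/- and at 1602 and 1571 CPM in Ptf1a+/- retinas. The libraries did not overlap, but the log2 fold change of 0.31 ± 0.12 missed the threshold (edgeR, adjusted p = 0.189). mmu-miR-434-3p stood at 1098 and 1030 CPM in Ptf1a-/- and at 716 and 698 CPM in Ptf1a+/- retinas. Here the log2 fold change was 0.59 ± 0.10 and passed (adjusted p = 0.0252).

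miR-431, at the far end of the Rtl1 coding sequence, is known in mouse sensory neurons for a role in axon growth after injury. mmu-miR-431-5p stood at 79.0 and 54.5 CPM in Ptf1a-/- and at 42.9 and 37.9 CPM in Ptf1a+/- retinas. The libraries did not overlap, but the Ptf1a-/- pair was far apart, and the log2 fold change of 0.74 ± 0.22 missed the threshold (edgeR, adjusted p = 0.102). This size is close to that of miR-433-3p, which passed, with a larger error (0.22 against 0.12). mmu-miR-431-3p, the least abundant arm, had 28 and 17 counts in Ptf1a-/- and 15 and 20 counts in Ptf1a+/- libraries. Scaled, these were 7.23 and 5.23 CPM in Ptf1a-/- against 3.87 and 4.25 CPM in Ptf1a+/- retinas (0.62 ± 0.32, adjusted p = 0.297; ratio 1.55, counting interval 0.973 to 2.48).

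**Figure D2:**
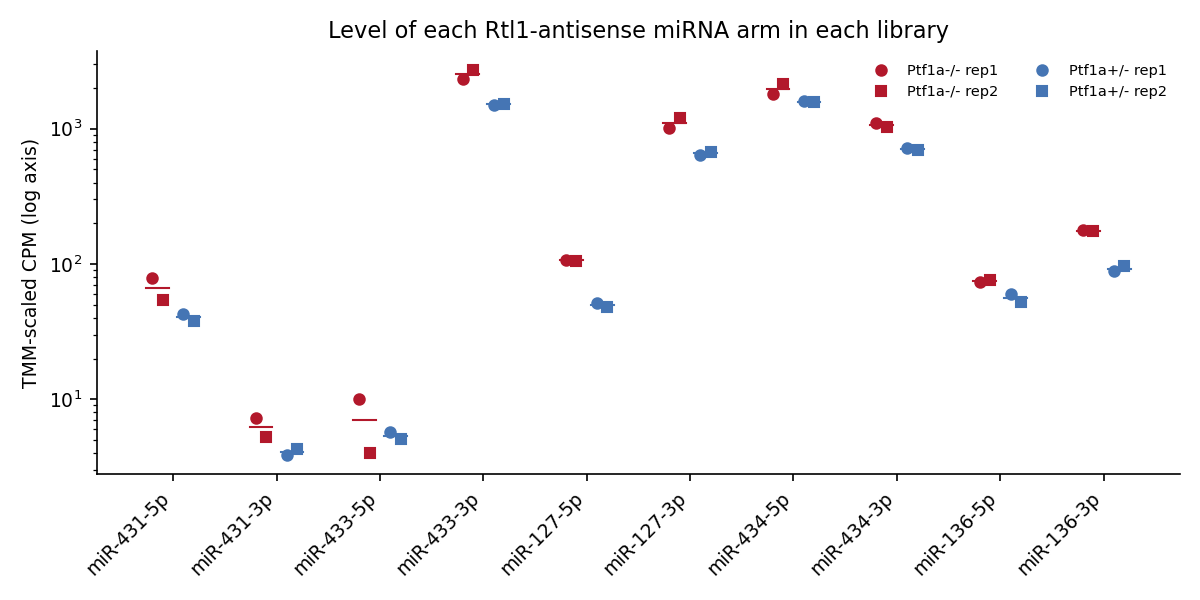
TMM-scaled CPM (log axis) of the 10 arms in each library, ordered along the chromosome, with the mean of each genotype as a line. Both Ptf1a-/- libraries (red) lie above both Ptf1a+/- libraries (blue) for every arm other than miR-433-5p, which had 13 to 39 counts.

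By level, 4 arms made up most of the set: miR-433-3p, miR-434-5p, miR-127-3p and miR-434-3p held 93.2 and 94.4% of its counts in Ptf1a-/- and 94.6 and 94.8% in Ptf1a+/- libraries. In rank of mean level among the 584 miRNAs these 4 stood between place 53 and place 87, and the lowest arm, miR-431-3p, at place 476. Ligation favours some sequences over others, which limits any ranking of arms by level. The order at the top differed between genotypes. miR-433-3p was above miR-434-5p in both Ptf1a-/- libraries, at 2524 ± 273 against 1969 ± 241 CPM (SD, n = 2), and below it in both Ptf1a+/- libraries, at 1513 ± 32.2 against 1586 ± 22.4 CPM (SD, n = 2). miR-127-3p and miR-434-3p, next in order, did not differ beyond their spread in Ptf1a-/- retinas (1103 ± 125.8 and 1064 ± 48.1 CPM) and stood at 657 ± 23.9 and 707 ± 12.7 CPM in Ptf1a+/- retinas. Further down, miR-136-5p (75.2 ± 1.61 CPM) and miR-431-5p (66.7 ± 17.3 CPM) lay within their spread in Ptf1a-/- retinas, as did miR-433-5p and miR-431-3p. In Ptf1a+/- retinas miR-136-5p was at 56.1 ± 5.03 CPM and miR-431-5p at 40.4 ± 3.54 CPM.

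The 10 arms together held 0.710 and 0.622% of the listed counts in Ptf1a-/- and 0.499 and 0.506% in Ptf1a+/- libraries. The difference of means was 0.163 percentage points with no overlap, at the smallest p that an exact permutation test of 2 libraries against 2 can give (two-sided p = 0.333). Against the larger total behind the deposited CPM the shares were 0.549 and 0.449% in Ptf1a-/- and 0.414 and 0.424% in Ptf1a+/- libraries, and the difference was 0.0797 percentage points.

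The size of the change depended on how the libraries were scaled, since Ptf1a-/- replicate 2 had a TMM factor of 0.829 and the other 3 libraries 1.06 to 1.07. With library size as the only scaling the whole table shifted by a median log2 fold change of -0.18. The 10 arms stayed above 0 there with a median of 0.50, which is 0.67 above that of all miRNAs, but none passed (edgeR), where 4 of all miRNAs were higher (0.685%) and 12 lower. At an unadjusted p under 0.05, 4 arms were higher, beside 42 of all 584 miRNAs (7.19%). On the deposited CPM the table shifted by -0.33, and the arms had a median of 0.30, 0.63 above that of all miRNAs. Again none passed (limma on log2(CPM + 1)), where 1 of all miRNAs was higher (0.171%) and 27 lower. At an unadjusted p under 0.05, 1 arm was higher, beside 19 of all 584 miRNAs (3.25%). With DESeq2 on its own size factors 5 arms passed, beside 42 of all miRNAs (7.19%). On the deposited CPM miR-433-5p and miR-434-5p had log2 fold changes of -0.052 and -0.038. For miR-434-5p the authors' deposited CPM were 1473 and 1280 in Ptf1a-/- and 1411 and 1409 in Ptf1a+/- libraries, with the Ptf1a-/- libraries on either side. On that scale both Ptf1a-/- libraries stayed above both Ptf1a+/- libraries for 4 arms, miR-433-3p, miR-136-3p and both arms of miR-127 (10.1% of all miRNAs did), and by library size for 6 arms (14.2%).

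**Figure D3:**
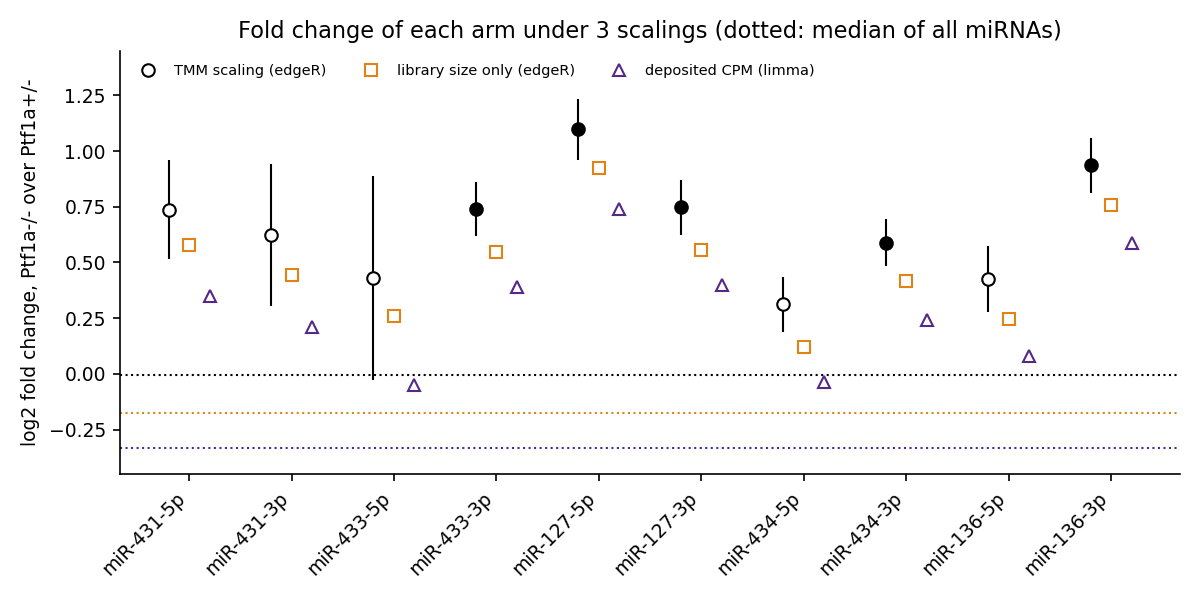
Log2 fold change of Ptf1a-/- over Ptf1a+/- for each arm under TMM scaling (black, with SE; filled where the adjusted p is under 0.05), library size only (orange) and deposited CPM (purple), with the median of all 584 miRNAs under each as a dotted line. All 10 arms are lower with library size only and lower again on the deposited CPM, where 2 arms fall just below 0 on the deposited CPM.

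The calls were lost when the Ptf1a+/- libraries were not both counted, which also leaves fewer residual degrees of freedom. With the pair summed into 1 library, or without either of them, 0 of the 10 arms passed (edgeR), as did 0 of all 584 miRNAs (0%) in the higher direction. At an unadjusted p under 0.05, 4 arms were higher in each of these fits, beside 35 of all miRNAs (5.99%) with the pair summed, 34 (5.82%) without replicate 1 and 32 (5.48%) without replicate 2. The arms' median log2 fold change stayed between 0.66 and 0.68.

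The ratio of the 2 arms of a hairpin within a library does not depend on scaling. The 5p arm held 9.62 and 8.16% of the miR-127 counts in Ptf1a-/- and 7.47 and 6.69% in Ptf1a+/- libraries. For miR-136 it held 29.3 and 30.4% in Ptf1a-/- and 40.2 and 35.4% in Ptf1a+/- libraries. For miR-434 it held 62.1 and 67.5% in Ptf1a-/- and 69.1 and 69.2% in Ptf1a+/- libraries. In Ptf1a-/- retinas the 5p share was thus higher for miR-127 and lower for miR-136 and miR-434, without overlap. The differences in log2 ratio (5p over 3p, Ptf1a-/- minus Ptf1a+/-) were 0.35 for miR-127, -0.51 for miR-136 and -0.28 for miR-434, each at the smallest p that an exact permutation test can give here (two-sided p = 0.333). For the other hairpins the genotypes overlapped: the 5p arm held 91.6 and 91.2% of miR-431 in Ptf1a-/- and 91.7 and 89.9% in Ptf1a+/- libraries (p = 0.667), and 0.430 and 0.147% of miR-433 in Ptf1a-/- and 0.380 and 0.331% in Ptf1a+/- libraries (p = 1, exact tests). Of all 152 pairs of arms with both tested, 48.7% did not overlap between genotypes, and the median size of the difference was 0.31, so 3 of 5 hairpins and differences of this size are near the background. For miR-434 the Ptf1a-/- replicates differed beyond counting error, since the 95% exact counting intervals of replicates 1 and 2 (61.2 to 63.0% and 66.6 to 68.4%) did not touch.

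**Figure D4:**
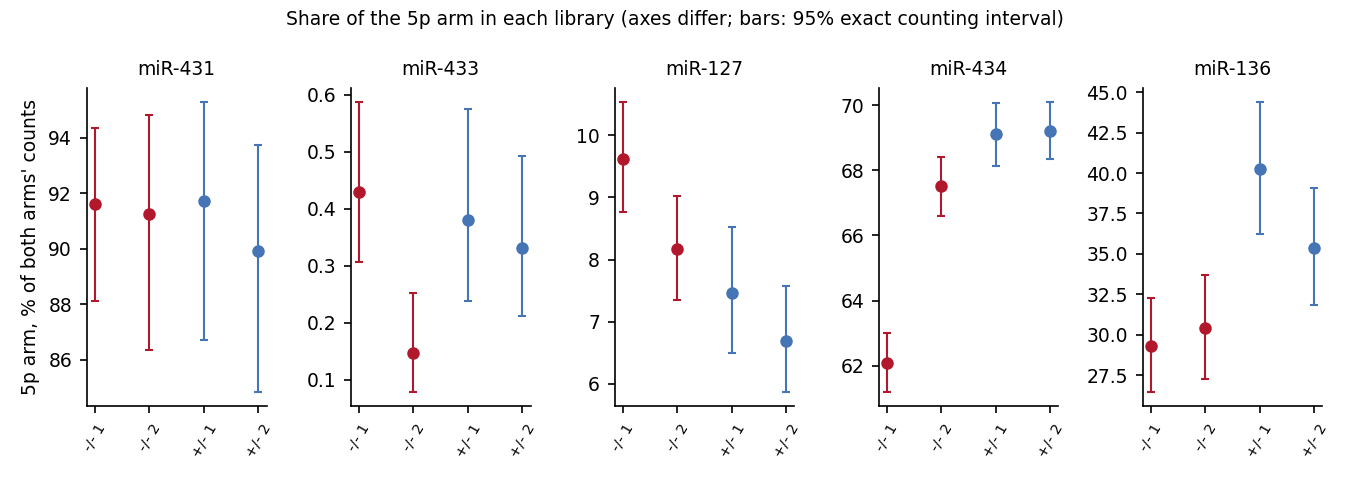
Share of the 5p arm in the counts of both arms, in percent, for each hairpin and library, with 95% exact counting intervals (the axes differ and do not start at 0). In miR-136 the 5p share was 29.3 and 30.4% in Ptf1a-/- (red) and 40.2 and 35.4% in Ptf1a+/- libraries (blue), while in miR-431 and miR-433 the genotypes overlap.

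The rest of the Dlk1-Dio3 domain was measured in the same fit. Of 93 further listed arms, taken from precursors of the domain, 65 had enough counts to be tested: 25 were higher and 3 lower in Ptf1a-/- retinas, and 37 did not pass (edgeR). The Rtl1-antisense arms, with 5 of 10 higher, are set beside them without a test of the difference. The median log2 fold change was 0.68 for the Rtl1-antisense arms and 0.73 for the other arms, and non-overlap upwards held for 9 of 10 and 54 of 65. The range of the Rtl1-antisense arms, 0.31 to 1.10, lay inside that of the other arms, -2.87 to 2.51. The upper end was miR-300-5p, 1 of the 25 higher arms. It stood at 2.58 and 3.08 CPM in Ptf1a-/- and 0.516 and 0.425 CPM in Ptf1a+/- retinas. These levels met the count minimum only in the Ptf1a-/- libraries. The next highest value was 1.67 (miR-493-5p). The lower calls among the other arms were miR-673-5p near Meg3 and both arms of miR-1247 near Dio3. None of the 10 Rtl1-antisense arms had a log2 fold change below 0, while 61 of the 65 others were above 0.

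**Figure D5:**
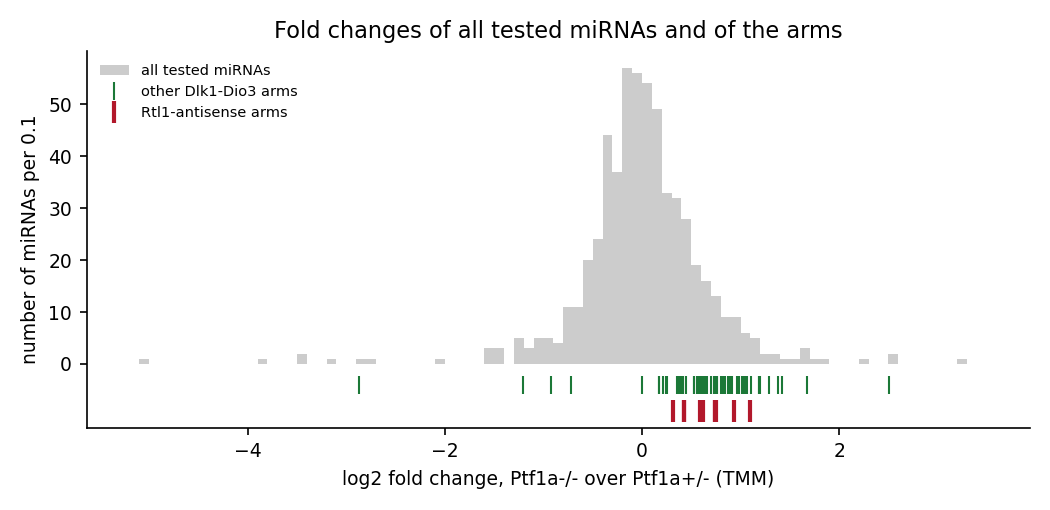
Log2 fold changes of Ptf1a-/- over Ptf1a+/- (TMM) for all 584 tested miRNAs (grey histogram, number per 0.1), with the other Dlk1-Dio3 arms (green ticks) and the Rtl1-antisense arms (red ticks) drawn below it. The 10 red ticks lie between 0.31 and 1.10, inside the range of the green ones. The highest green tick is miR-300-5p, which met the count minimum only in the Ptf1a-/- libraries.

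The miRNAs whose pattern over the 4 libraries was most like that of the set all came from the same domain. Likeness was the Euclidean distance between log2 CPM centred over the 4 libraries and the mean of the 10 arms, among 408 other miRNAs with a mean of 10 CPM or more, of which 53 (13.0%) belong to the domain. The nearest 5 were miR-341-3p (distance 0.0841), miR-369-5p (0.104), miR-487b-3p (0.133), miR-495-3p (0.133) and miR-380-3p (0.169). The arms themselves lay between 0.0627 (miR-434-3p) and 0.859 (miR-433-5p) from their own mean. Of the 5, miR-341-3p averaged 133.3 CPM in Ptf1a-/- and 85.0 CPM in Ptf1a+/- retinas, a log2 fold change of 0.65 ± 0.14 (edgeR, adjusted p = 0.0436). miR-369-5p (0.58 ± 0.11, adjusted p = 0.0293) and miR-380-3p (0.74 ± 0.15, adjusted p = 0.0389) were also higher, and miR-487b-3p and miR-495-3p missed the threshold (0.64 and 0.56, adjusted p = 0.0844 and 0.0517).

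Within the set, the Ptf1a-/- replicates differed in which arms stood out. In Ptf1a-/- replicate 1, miR-431-5p lay 0.97 above the Ptf1a+/- mean on the log2 scale and miR-434-5p 0.18 above it. In Ptf1a-/- replicate 2 these arms lay 0.43 and 0.43 above it. miR-127-5p and miR-136-3p were the most even, at 1.11 and 1.08 and at 0.95 and 0.92 above the Ptf1a+/- mean in Ptf1a-/- replicates 1 and 2. miR-433-3p and miR-127-3p were higher in replicate 2, at 0.84 and 0.86 against 0.62 and 0.63 in replicate 1. These levels are TMM-scaled, and the order of the replicates depended on the scaling. On the deposited CPM, Ptf1a-/- replicate 1 was the higher for miR-433-3p (1909 against 1626) and miR-127-3p (830 against 713). There miR-127-5p (88.3 against 63.3) and miR-136-3p (146.3 against 104.4) were also higher in replicate 1.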

How the data were processed

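Genotype and replicate number came from the sample titles. The authors' deposited table of raw values held estimated counts per mature miRNA (whole for the 10 arms, but not for 5.73 to 7.84% of a library's values); these were rounded to whole numbers. The authors' deposited CPM are the same counts over a total that exceeds the listed counts, by 22.7 and 27.9% of it in Ptf1a-/- and 17.05 and 16.3% in Ptf1a+/- libraries of unstated content. The third deposited table, per the file headers, gives the most frequent sequence (other, text) against miRBase22. Per the submitters' processing notes, bcl2fastq 2.20.0.422 was used; the aligner, the counter and the genome build are not stated in them.

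The main test was edgeR 4.0.16 (R 4.3.3; glmQLFit, legacy=FALSE), TMM, genotype as the only term, on the 584 miRNAs that reached 10 counts in 2 or more libraries; all 10 arms passed this filter. limma 3.58.1 and DESeq2 1.42.0 served as alternatives. The main edgeR test was also run on simulated counts, with a pass rule only for changes larger than those of the 10 arms. Standard errors derive from the F statistic. Log2 CPM for likeness had a prior count of 2, arm ratios a pseudocount of 0.5. Members and lists were chosen with earlier results of these data known. Named miRNAs are the 10 arms, the 5 nearest in pattern and the 6 markers of the retina list. In addition, miR-200b-3p, miR-673-5p, miR-1247, miR-300-5p and miR-493-5p were named after their values were seen. Positions are from RefSeq (GRCm38.p6) and GENCODE M21.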

Additional observations from a re-analysis of the deposited data

How the results depend on the processing

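Without a filter on low counts 2 arms passed, 9 other Dlk1-Dio3 arms were higher and 1 lower, and 12 miRNAs of 1255 were higher and 9 lower. With library size as the only scaling 0 arms passed, 4 other Dlk1-Dio3 arms were higher and 1 lower, and 4 miRNAs were higher and 12 lower; the arms' median was 0.50. On the deposited CPM (limma) 0 arms and 0 other Dlk1-Dio3 arms were higher and 1 miRNA was, against 27 lower with a pseudocount of 1 and 22 with 0.1; the arms' medians were 0.30 and 0.30, miR-433-5p stood at -0.052 and -0.10 and miR-434-5p at -0.038 and -0.038, and the difference in summed share was 0.0797 points. TMM without the Dlk1-Dio3 miRNAs gave 5 arms, 27 other Dlk1-Dio3 arms higher, and 40 miRNAs higher and 13 lower. RLE scaling gave 5 arms and 33 miRNAs higher, DESeq2 5 and 42, a minimum of 100 counts 5 of 8 arms and 34 of 325 miRNAs, and limma voom with a weight per genotype 6 arms and 52 miRNAs. With the Ptf1a+/- pair summed 0 arms, 0 other Dlk1-Dio3 arms either way, 0 miRNAs higher and 1 lower passed (edgeR; 35 higher at an unadjusted p under 0.05). The labels do not say whether the replicate numbers mark a shared litter or day. Same-numbered libraries hardly deviated together (correlation 0.05 over miRNAs). With the replicate block 0 arms passed (edgeR, adjusted p from 0.0521). At an unadjusted p under 0.05, 6 arms were higher in that fit, beside 69 of all 584 miRNAs. Of the other Dlk1-Dio3 arms 4 were higher and 1 lower there, and of all miRNAs 5 were higher and 7 lower.

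Leaving out 1 library in turn, the arms called ranged from 0 to 9, their median from 0.50 to 0.75, other Dlk1-Dio3 arms from 0 to 49 higher and 0 to 4 lower, and all miRNAs from 0 to 142 higher and 1 to 132 lower. Without either Ptf1a+/- library the calls were lost, and the arms' median was 0.66 without replicate 1 and 0.67 without replicate 2. It was 0.50 without Ptf1a-/- replicate 1 and 0.75 without Ptf1a-/- replicate 2. The lone library is assumed to vary like the pair of the other genotype, which for the Ptf1a+/- pair is little. Without Ptf1a-/- replicate 1 miR-433-5p stood at -0.42, and without replicate 2 at 0.92 (adjusted p = 0.0206, edgeR). The summed share differed by 0.119 to 0.207 points, and the arm ratios kept their direction for miR-127 (0.22 to 0.48), miR-136 (-0.66 to -0.36) and miR-434 (-0.45 to -0.11) but not for miR-431 and miR-433. No arm was lower in any of these fits at an adjusted p under 0.05. The cause of these shifts was not tested. Counts of 13 to 39 limit miR-433-5p and miR-431-3p.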
